A study of Caenorhabditis briggsae with 12 samples.

Results

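In 2 of the 3 libraries made from day 9 adults of the nematode Caenorhabditis briggsae, 331 of 23169 genes stood at a level at least 4 times as high as in any of the 10 other libraries. Levels are given as CPM, the count of a gene scaled to a common library total of 1000000 counts. A gene was taken if the lower of its values in day 9 replicates 2 and 3 was at least 5 CPM and at least 4 times the highest value elsewhere, if replicate 1 of day 9 was under 2 times the highest value of days 1, 3 and 6, and if the mean over 12 libraries was under 1000 CPM. The values at day 9 therefore chose these genes, and what is said of day 9 describes the choice and carries no test. The limits on replicate 1 of day 9 against days 1, 3 and 6 and on the mean removed 0 genes, since all 331 that met the 4-fold limit also met both.

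Worms of the wild-type strain AF16, all hermaphrodites, were fed Escherichia coli OP50 on plates at 20 °C. Whole worms were taken as adults of day 1, 3, 6 or 9, and each day has 3 libraries. No mutant, transgene or drug is named for any group. Adults were freed of larvae every second day by letting them settle in buffer and by picking. Whether the 3 libraries of a day are separate cultures is not stated in the labels. The p-values therefore reflect the spread between libraries only, and that spread may be technical.

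A C. briggsae hermaphrodite makes its own sperm first and oocytes later, and it lays self-fertilised eggs until the sperm are used up. RNA from whole adults thus comes from body tissues, from the germ line and from eggs still held in the uterus, in proportions that change with age. In such bulk samples, fewer cells of a type and less RNA per cell cannot be told apart. The genes are known here by WormBase identifier only. Of these identifiers, 0 were found in the RefSeq gene table used, so no gene name, function, chromosome or sequence is given, and the genes are described by their behaviour.

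The libraries held 14276540 to 33732477 counts, and the shallowest was replicate 1 of day 9. Each pair of libraries within a day differed by more than sampling noise (chi-square over its degrees of freedom between 4.23 and 288.0), so each was counted as a library of its own. The largest of these values was between replicates 3 and 1 of day 9, the next between replicates 2 and 1, at 238.8, while replicates 3 and 2 differed by 15.3. A count of 0 allows up to 0.210 CPM in replicate 1 of day 9 and up to 0.132 CPM in the other libraries, taking 3 counts as the limit and covering counting error only.

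The 331 genes made up 3.04% and 3.58% of all counts in day 9 replicates 2 and 3, and 0.0393% in replicate 1. The 3 libraries of day 1 averaged 0.452% ± 0.0390, those of day 3 averaged 0.146% ± 0.0650 and those of day 6 averaged 0.0880% ± 0.0784 (SD, n = 3). The median level of the 331 genes was 27.8 and 31.2 CPM in day 9 replicates 2 and 3. It was 0.280 CPM in replicate 1 of day 9, 3.38 to 3.77 CPM in the libraries of day 1, 1.22 to 2.13 CPM at day 3 and 0.447 to 1.54 CPM at day 6. That the genes were high in those 2 libraries alone thus holds at the 4-fold limit of the rule, but they were not silent elsewhere: 0, 0 and 1 of them had 0 counts in the 3 libraries of day 1. In replicate 1 of day 9, 65 had 0 counts and 127 had fewer than 3.

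**Figure D1:**
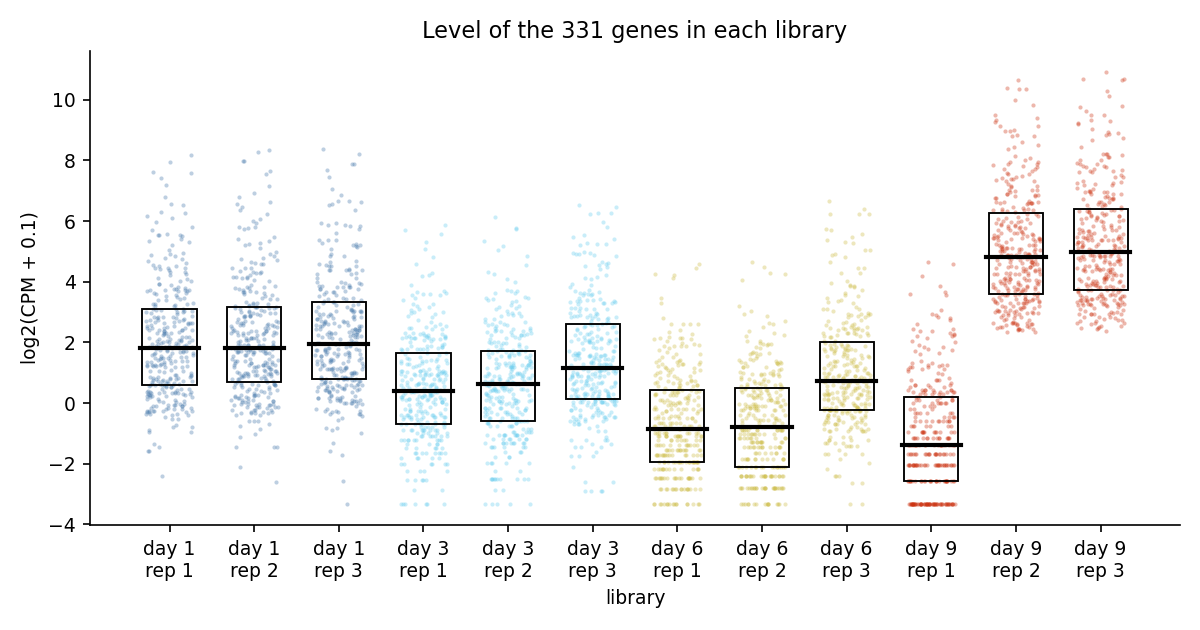
Level of the 331 genes in each of the 12 libraries, as log2(CPM + 0.1), with 1 point per gene, the median as a thick line and the quartiles as a box. Replicates 2 and 3 of day 9 have medians of 27.8 and 31.2 CPM, and replicate 1 of day 9 has the lowest median, at 0.280 CPM.

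Replicate 1 of day 9 decided few of the memberships. Of 10149 genes at 5 CPM or more in both other day 9 libraries, 343 stood at 4 times or more the highest library of days 1, 3 and 6, and 331 of these were also 4 times above replicate 1 of day 9. In the other 12 genes the lower value of replicates 2 and 3 was 0.0726 to 3.84 times that of replicate 1. Among the 331 genes, replicate 1 of day 9 was the lowest of the 12 libraries in 164, or 49.5%, where it was the lowest in 18.1% of all genes tested. It lay below all 3 libraries of day 6 in 176 genes (53.2%), where it did so in 31.8% of all genes tested. It lay above all 9 libraries of days 1, 3 and 6 in 7 (2.11%), against 25.1%. The rule caps replicate 1 of day 9, so these counts are a description.

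The lower of the 2 high day 9 values spanned a wide range of levels. It was at least 10 CPM in 265 genes, at least 100 CPM in 62 and at least 1000 CPM in 5. The 20 genes with the highest such value held 49.1% and 50.6% of the summed level of all 331 in replicates 2 and 3. The ratio of the lower value to the highest of the other 10 libraries had a median of 6.38 (quartiles 4.97 and 8.12), and it was at least 8 in 87 genes and at least 16 in 3. Levels in replicates 3 and 2 of day 9 lay close together, at a ratio of 0.669 to 1.44 with a median of 1.15. Replicate 3 was the higher in 293 genes, or 88.5%, against 45.8% of all genes at 5 CPM or more in both libraries.

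WBGene00042838 was the most abundant of the genes by the lower value. It stood at 246.9, 311.1 and 297.5 CPM at day 1, at 3.93, 7.59 and 76.9 CPM at day 3, at 2.60, 2.73 and 85.0 CPM at day 6, and at 0.630, 1603 and 1920 CPM in the 3 libraries of day 9. Replicate 3 of days 3 and 6 was thus over 10 times the other replicates of its day, and the 3 libraries of day 9 spanned the whole range of the gene. WBGene00028378, the next, stood at 12.5, 1339 and 1663 CPM at day 9 and reached 334.6 CPM at day 1. With a ratio of 4.002 it was also the gene nearest to the 4-fold limit from inside.

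The largest ratio was that of a gene near the minimum level. WBGene00028136 had a ratio of 18.3, with 5.56 and 6.58 CPM in day 9 replicates 2 and 3, 0 counts in replicate 1, and 0.237, 0.262 and 0.303 CPM at day 1. WBGene00033150, the next, had a ratio of 17.2, with 32.1 and 35.4 CPM in day 9 replicates 2 and 3 and 0 counts in replicate 1. It stood at 1.54 to 1.68 CPM at day 1, at 1.33 to 1.87 CPM at day 3, and at 0.203, 0.132 and 1.24 CPM at day 6, so that replicate 3 of day 6 was again nearer to the earlier days than its fellow libraries.

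Genes on either side of the limit had ratios that were alike, while their levels differed. WBGene00027362, inside at a ratio of 4.01, stood at 5.30 and 6.12 CPM in day 9 replicates 2 and 3 against 1.32 CPM in the highest other library. WBGene00024652, outside at 3.99, stood at 45.6 and 58.7 CPM against 11.4 CPM in replicate 3 of day 6. WBGene00023689, outside at 3.96, stood at 7.91 and 7.59 CPM against 1.92 CPM in replicate 3 of day 1. The 2 members highest in replicate 1 of day 9 were WBGene00039827 and WBGene00041546. WBGene00039827 stood at 25.01 CPM there, between its values of day 6 (16.4 to 19.3 CPM) and of day 1 (37.6 to 41.6 CPM). WBGene00041546 stood at 24.2 CPM there, within its range at day 6 (19.2 to 28.1 CPM).

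Outside replicates 2 and 3 of day 9, the genes had their highest value mostly at day 1. The highest of the other 10 libraries was one of day 1 in 268 genes (81.0%), one of day 3 in 46, one of day 6 in 10 and replicate 1 of day 9 in 7. By the means of days 1, 3 and 6, 292 genes (88.2%) were highest at day 1, against 51.4% of all genes tested. The lowest mean was that of day 6 in 296 (89.4%), against 35.8%. The order day 1, day 3, day 6 from high to low held in 271 (81.9%), against 32.6%, and the opposite order in 3 (0.906%), against 27.2%. Relative to the mean of replicates 2 and 3 of day 9, the median gene stood at 11.4% to 13.5% in the libraries of day 1, at 4.24%, 4.80% and 7.28% at day 3, at 1.27%, 1.33% and 5.22% at day 6, and at 0.990% in replicate 1 of day 9.

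**Figure D2:**
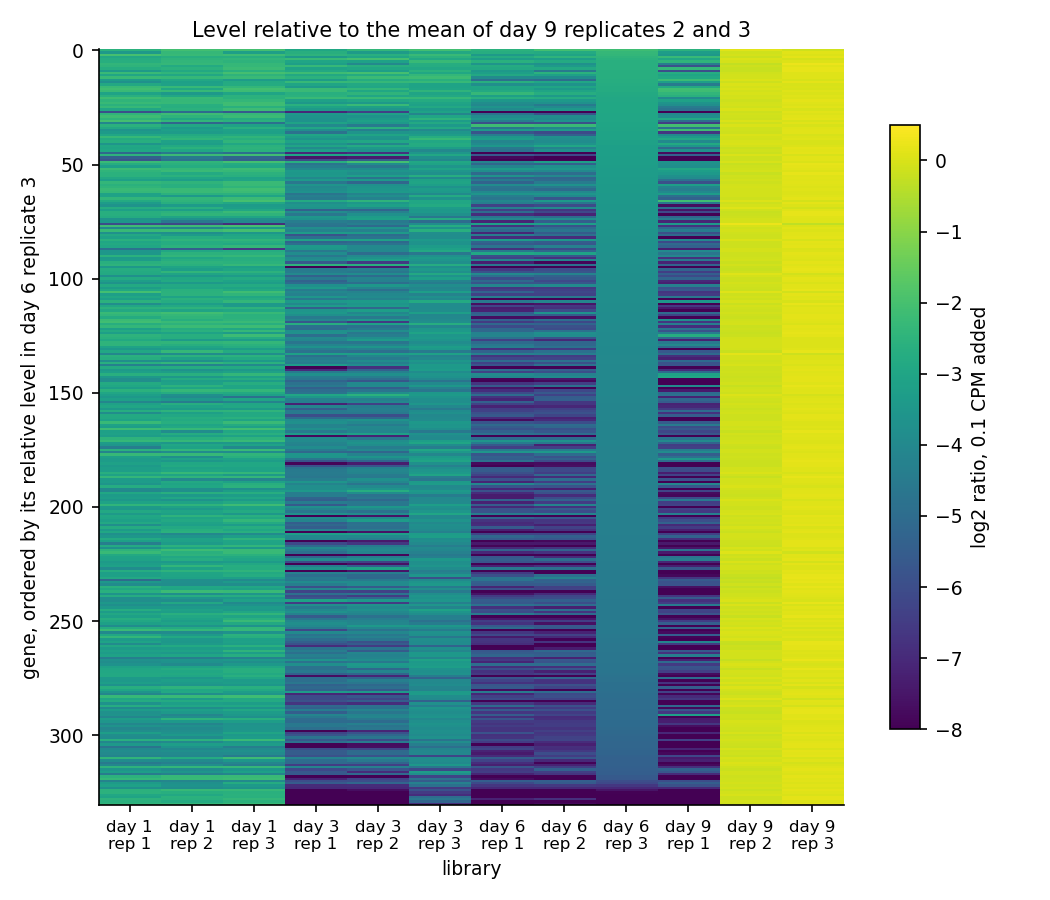
Level of each of the 331 genes (rows) in each library (columns), as the log2 ratio to the mean of day 9 replicates 2 and 3 with 0.1 CPM added; ratios under -8 share the darkest colour. Rows are ordered by day 6 replicate 3, whose column is lighter than those of day 6 replicates 1 and 2 and of day 9 replicate 1; its median gene stands at 5.22% of the day 9 mean, against 1.27% and 1.33% in the other libraries of day 6.

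Libraries within day 3 and within day 6 stood apart in these genes. The 331 genes made up 0.179% of the counts in replicate 3 of day 6 against 0.0428% in each of replicates 1 and 2. Per gene, replicate 3 of day 6 stood at a median of 3.17 times the mean of replicates 1 and 2, over the 323 genes with a count in either. The median over all genes tested was 0.965. Replicate 3 was at least 2 times that mean in 227 members (70.3%) and at least 4 times in 131 (40.6%). Of all genes tested, 5.67% reached 2 times and 2.015% reached 4 times. At day 3, replicate 3 held 0.221% of the counts in these genes, against 0.103% and 0.115% in replicates 1 and 2. It was at least 2 times the mean of replicates 1 and 2 in 113 genes (34.5%), where 8.82% of all genes tested were. At day 1 the medians of the 3 libraries against the mean of the others were 0.908, 0.980 and 1.10. No marker genes could be read, so what the replicates differed in was not tested.

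The values in replicate 3 of day 6 were set beside those of a larger group of genes. This group of 751 met the same limits over days 3 and 6 and replicate 1 of day 9 but stayed under 4-fold over day 1. The 331 genes are thus 30.6% of the 1082 that met the limits without day 1. Relative to the highest day 1 library, the lower value of day 9 replicates 2 and 3 had a median ratio of 6.54 in the 331 genes and of 0.805 in the 751. The median level of the 751 genes was 20.9 to 21.3 CPM at day 1, 0.778 to 1.94 CPM at day 3 and 0.529 to 0.756 CPM at day 6. A higher level at day 1 than at days 3 and 6 is thus not particular to the 331 genes. The limits that define the 751 favour such a difference. In replicate 3 of day 6, 70.3% of the 331 genes and 23.6% of the 751 stood at 2 times or more the mean of replicates 1 and 2. In replicate 3 of day 3 the order was the opposite, with 34.5% of the 331 genes and 55.5% of the 751. The median ratios were 3.17 and 1.17 at day 6 and 1.55 and 2.496 at day 3, in the same order of groups. Both groups were chosen on values of these libraries, so these differences are a description with no test.

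**Figure D3:**
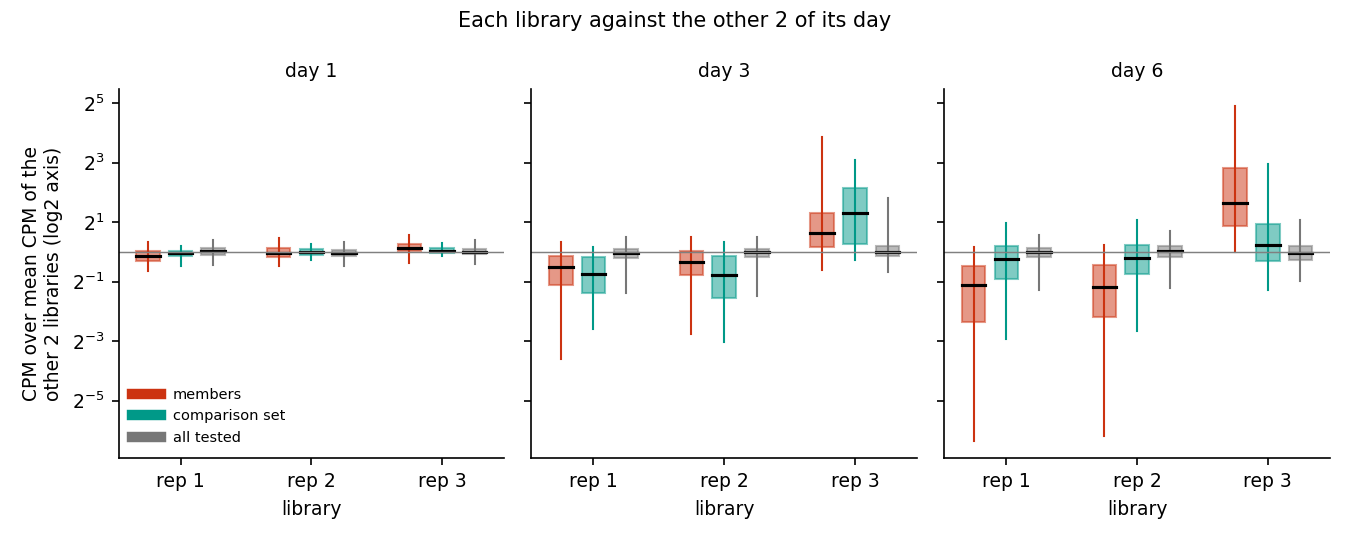
Level of each library of days 1, 3 and 6 over the mean of the other 2 libraries of its day, on a log2 axis, for the 331 genes (members), the 751 genes that met the limits without day 1 (comparison set) and all 15409 genes tested; boxes span the quartiles, lines the 5th to 95th percentile, and black bars mark medians. The 331 genes stand out in replicate 3 of day 6, with a median of 3.17, and the 751 genes in replicate 3 of day 3, with a median of 2.496.

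The genes that stood out in replicate 3 of day 6 were not sharply parted from the rest. The 131 genes at 4 times or more had a median rule ratio of 6.76, and 50 of them were at 2 times or more in replicate 3 of day 3. The 96 genes under 2 times had a median rule ratio of 5.39, and 21 of them were at 2 times or more in replicate 3 of day 3. In 10 genes replicate 3 of day 6 stood under 1% of the mean of replicates 2 and 3 of day 9. These 10 had median levels of 14.8% to 16.6% of that mean at day 1, of 0.0462% and 0.0790% in replicates 1 and 2 of day 3, of 1.15% in replicate 3 of day 3 and of 0.168% to 0.306% at day 6. These 10 genes were picked by their value in replicate 3 of day 6, so their low level there is no finding.

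Changes among days 1, 3 and 6 were tested in the 9 libraries of those days, without day 9, so that the day 9 values entered neither the filter nor the fit. The comparisons are not free of the choice, because the libraries of days 1, 3 and 6 set the limit that a gene had to pass. The low-count filter kept 15409 genes, among them 329 of the 331. The 2 left out, WBGene00028136 and WBGene00028132, had at most 16 counts in any library of days 1, 3 and 6. Counts were fitted with edgeR's quasi-likelihood method, and a gene was called at a Benjamini-Hochberg adjusted p under 0.05 over all 15409 genes.

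At day 6 most of the genes were lower than at day 1. Of the 329 tested, 243 (73.9%) were called lower and 2 higher, against 41.5% lower and 34.8% higher of all genes tested. The median log2 fold change was -2.01 (quartiles -2.48 and -1.29) in the 329 genes and -0.14 over all genes tested. The libraries of day 6 lay wholly below those of day 1 in 287 of the 331 genes, or 86.7%, where 44.3% of all genes tested did so, and wholly above in 2, where 34.7% did. Without replicate 3 of day 6, 295 genes were called lower, and the median log2 fold change was -3.04. That is 89.7% of those tested, against 42.3% of all genes tested. With all 9 libraries and the replicate number as a block, 273 (83.0%, against 41.3%) were called lower. With day 9 in the fit, 23 of 330 genes (6.97%) were called lower and 1 higher. Of all 15788 genes tested, 27.1% were called lower and 29.4% higher. The rule sets replicates 2 and 3 of day 9 at least 4 times above replicate 1 in every member. That spread enters this fit, so few calls among the members can follow from the choice alone. Nothing is read from these counts, nor below from calls lost with day 9 in the fit.

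WBGene00025130 had 222, 186 and 187 counts at day 1, 1, 0 and 10 at day 3 and 0, 0 and 2 at day 6, and it was called lower at day 6 than at day 1 with an edgeR adjusted p of 7.48e-06. Its day 9 values were 36.9 and 41.4 CPM in replicates 2 and 3, with 0 counts in replicate 1. WBGene00028126 had 0 counts in all 3 libraries of day 6, against 29, 25 and 28 at day 1, which is at least 23.4-fold lower, taking 3 counts over the day 6 libraries as the limit (edgeR adjusted p = 3.97e-05). It reached 12.3 and 13.2 CPM in day 9 replicates 2 and 3. Both genes were thus close to silent at day 6 and in replicate 1 of day 9.

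The 2 genes called higher at day 6 than at day 1 were low in all libraries of days 1, 3 and 6. WBGene00041030 had 29, 27 and 30 counts at day 6 and 3, 2 and 0 at day 1, with no overlap. Its log2 fold change was 4.25 ± 0.52 (SE; edgeR adjusted p = 3.53e-05), and it was 4.91 without replicate 1 of day 1 and 3.74 without replicate 3 of day 1. Its day 9 libraries held 0.981, 14.1 and 9.45 CPM. WBGene00034692 stood at 1.66 to 2.44 CPM at day 6 against 1.08 to 1.48 CPM at day 1, a log2 fold change of 0.58 ± 0.23 (SE; edgeR adjusted p = 0.0400). Its call was lost without any 1 library of day 1, replicate 1 of day 3 or replicate 1 or 2 of day 6, and also with DESeq2, with no low-count filter and with day 9 in the fit.

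**Figure D4:**
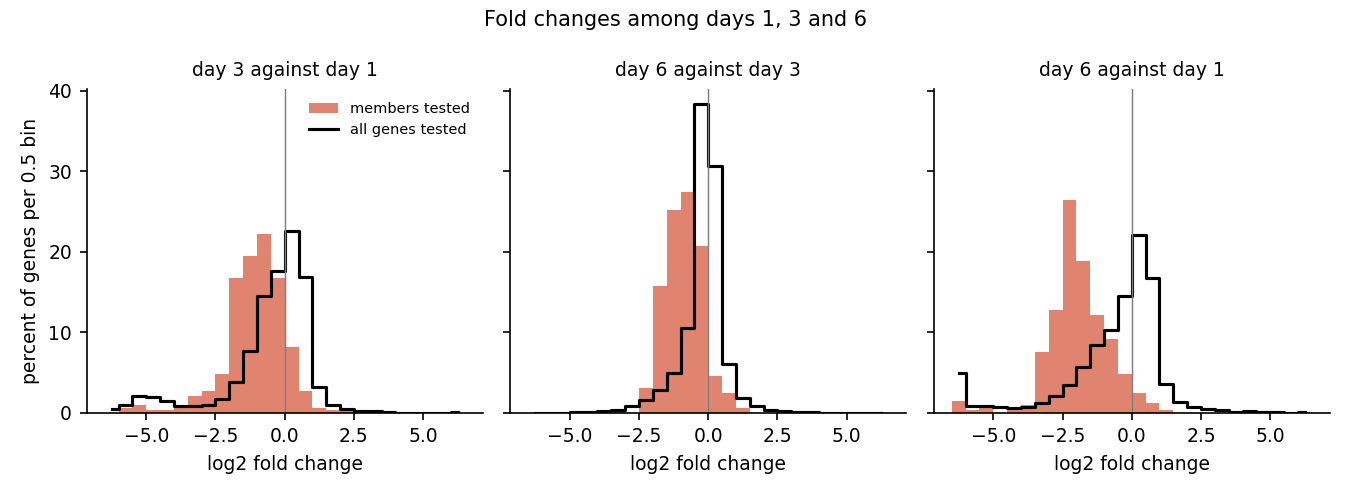
Distribution of log2 fold changes of the 329 tested members (bars) and of all 15409 genes tested (line) in the 3 comparisons among days 1, 3 and 6, in bins of 0.5; the outermost bins hold all values beyond -6 and 6. The members' median is -0.97 at day 3 against day 1, -0.93 at day 6 against day 3 and -2.01 at day 6 against day 1.

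Between day 3 and day 1, whether lower calls were more frequent among these genes than among all genes depended on the libraries and on the settings of the fit. At day 3 and with all 9 libraries, 107 of 329 (32.5%) were called lower than at day 1 and 6 higher, where 37.5% of all genes tested were called lower and 32.3% higher. The median log2 fold change was -0.97 in the 329 genes and -0.14 over all genes tested, and 288 of the 329 had a negative value. The libraries of day 3 lay wholly below those of day 1 in 225 of the 331 genes (68.0%) and wholly above in 7, where 47.1% and 30.6% of all genes tested did so. With the same 9 libraries, median-of-ratios factors gave 106 lower calls (32.2%, against 36.1% of all genes). With the replicate number as a block, over the same 15409 genes, the order of the shares was the opposite, with 166 (50.5%, against 37.5%). The lower calls numbered 108 (32.6%, against 31.4%) with no low-count filter and 98 (29.6%, against 25.2%) with DESeq2. Both of these fits took in 20690 genes, those of low count among them. Their order of shares thus cannot be set against that of the main fit. DESeq2 also gave 29 of the members no adjusted p, and these count as not called. The count of lower calls was 69 (21.0%) without replicate 3 of day 1, where 33% of all genes tested were called lower. It was 69 (20.9%, against 34.3% of all genes) without replicate 1 of day 3 and 67 (20.4%, against 33.5%) without replicate 2 of day 3. The members' share was also the lower one without replicate 1 or 2 of day 1 (25.5% against 34.2%, and 24.0% against 33.7%). The same held, by a small margin, without replicate 1 or 2 of day 6 (36.67% against 37.15%, and 35.45% against 37.23%). The members' share was again the higher one without replicate 3 of day 3, with 159 (48.3%, against 36.7%), and without replicate 3 of day 6, with 187 (56.8%, against 40.1%). Without replicate 3 of days 3 and 6 together, a setting chosen after seeing the data, 253 (76.9%, against 41.5%) were called lower and 12 higher, where 33.8% of all genes were called higher. With day 9 in the fit 5 were called lower (1.52%, against 18.8%) and 1 higher, and nothing is read from this count.

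WBGene00025511 showed the largest called fall between these days. It stood at 0.0741, 0.0378 and 1.31 CPM at day 3 against 30.3, 31.3 and 33.4 CPM at day 1, a log2 fold change of -5.86 ± 0.76 (SE; edgeR adjusted p = 0.000252), and of -8.93 without replicate 3 of day 3. It remained at 0.212 to 0.617 CPM at day 6 and had 0 counts in replicate 1 of day 9, against 150.7 and 175.8 CPM in replicates 2 and 3. WBGene00028126 was the next, with 0, 0 and 1 counts at day 3 (edgeR adjusted p = 6.91e-05). This call held in 14 of 15 alternatives. It was lost only with day 9 in the fit, which takes in the day 9 spread set by the rule.

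The largest called rises between days 1 and 3 were again in genes of low level. WBGene00041030 had 10, 13 and 22 counts at day 3, against 3, 2 and 0 at day 1, a log2 fold change of 3.33 ± 0.57 (SE; edgeR adjusted p = 0.000422), with 3.93 without replicate 1 of day 1 and 2.82 without replicate 3 of day 1. WBGene00041823 stood at 1.30, 0.907 and 1.71 CPM at day 3, against 0.474, 0.262 and 0.0673 CPM at day 1, a log2 fold change of 2.35 ± 0.88 (SE; edgeR adjusted p = 0.0390). Its libraries did not overlap, but the call was lost without replicate 2 or 3 of day 1 or replicate 1 or 3 of day 3, and with day 9 in the fit. Its value was 3.05 without replicate 1 and 1.92 without replicate 3 of day 1. At day 6 it stood at 0.0407, 0.132 and 1.15 CPM, the last in replicate 3.

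Between day 6 and day 3, few of the genes were called. At day 6, 45 of 329 (13.7%) were lower than at day 3 and 2 higher, against 11.7% lower and 7.59% higher of all genes tested. The median log2 fold change was -0.93, against -0.07 over all genes tested, and it was negative in 304 of the 329. The libraries of day 6 lay wholly below those of day 3 in 74 of the 331 genes (22.4%) and wholly above in 6, where 15.3% and 20.9% of all genes tested did so. Replicate 3 of day 6 moved the count the most: without it 204 genes (62.01%) were called lower, against 18.6% of all genes tested, and the median log2 fold change was -2.07. With the same 9 libraries, the lower calls numbered 41 (12.5%, against 9.5% of all genes) with median-of-ratios factors. They numbered 69 (21.0%, against 12.6%) with the replicate number as a block. With no low-count filter there were 32 (9.67%, against 6.02% of a larger set of 20690 genes). Without replicate 1, 2 or 3 of day 1 the lower calls numbered 24, 27 and 27, where 6.67%, 9.54% and 8.17% of all genes were called lower. They numbered 25 and 24 without replicate 2 or 3 of day 3, against 8.41% and 10.4% of all genes, and 17 without replicate 1 or 2 of day 6, against 5.12% and 4.57%. These counts are 5.15% to 8.21% of the members tested. Without replicate 3 of days 3 and 6 together there were 216 (65.7%, against 21.3% of all genes tested). With day 9 in the fit edgeR called 0 lower and 0 higher, with 5 at an unadjusted p under 0.05. Of all genes tested, 0.538% were called lower and 1.43% higher in that fit, and nothing is read from this count. DESeq2 on the 9 libraries called 61 lower (18.4%, against 9.2% of 20690 genes) and 2 higher, against 7.36%. It gave 31 of the members no adjusted p, and these count as not called.

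WBGene00302992 stood at 0.0813, 0.0881 and 0.605 CPM at day 6 against 1.37, 1.44 and 1.31 CPM at day 3, a log2 fold change of -2.32 ± 0.52 (SE; edgeR adjusted p = 0.0145), and of -4.08 without replicate 3 of day 6. Its call held in 14 of 15 alternatives. It was lost only with day 9 in the fit (edgeR adjusted p = 0.372), which takes in the day 9 spread set by the rule. WBGene00036356 stood at 0.0813, 0.0881 and 0.726 CPM at day 6 against 0.667, 1.66 and 2.13 CPM at day 3, with ranges that overlap. Its log2 fold change was -2.23 ± 0.67 (SE; edgeR adjusted p = 0.0486) and -4.21 without replicate 3 of day 6, and its call was lost without any 1 library of day 1, replicate 2 or 3 of day 3 or replicate 1 or 2 of day 6, and with day 9 in the fit. In both genes replicates 1 and 2 of day 6 were far below day 3 and replicate 3 much less so.

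Of the 2 genes called higher at day 6 than at day 3, neither kept its call in every fit that left out 1 library. WBGene00024643 stood at 2.11, 1.98 and 1.12 CPM at day 6 against 0.518, 0.340 and 0.821 CPM at day 3, a log2 fold change of 1.48 ± 0.35 (SE; edgeR adjusted p = 0.0178). Its call was lost without replicate 1 or 2 of day 3 or replicate 1 or 2 of day 6, and with day 9 in the fit. WBGene00037284 stood at 5.94, 6.03 and 7.56 CPM at day 6 against 4.44, 3.02 and 3.87 CPM at day 3, a log2 fold change of 0.69 ± 0.20 (SE; edgeR adjusted p = 0.0402). Its call was lost without replicate 2 or 3 of day 1, replicate 2 or 3 of day 3 or any 1 library of day 6, and with day 9 in the fit. WBGene00037284 also differed from most of the 331 genes at day 9, with 14.3 CPM in replicate 1, above all libraries of days 1, 3 and 6, and 57.8 and 68.1 CPM in replicates 2 and 3.

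**Figure D5:**
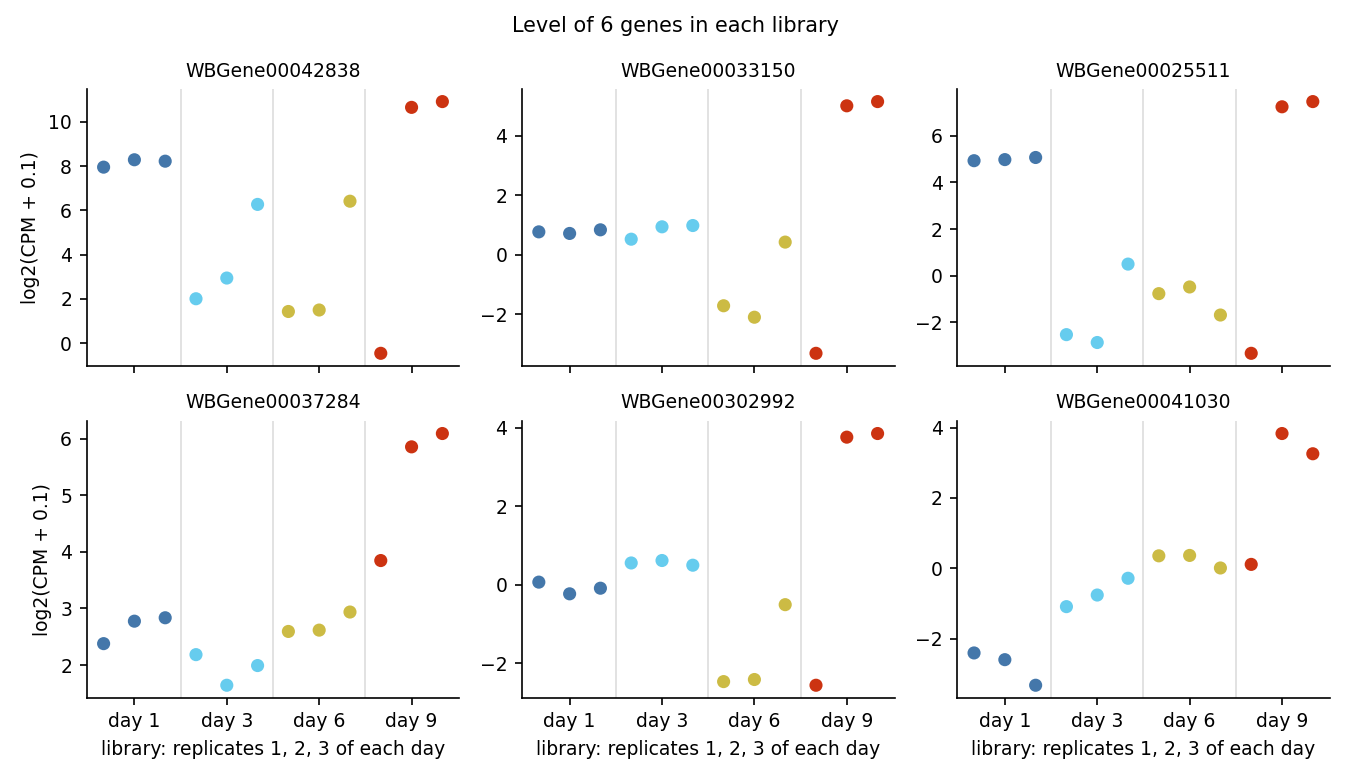
Level of 6 genes in each library, as log2(CPM + 0.1), with replicates 1, 2 and 3 of each day from left to right and an axis of its own per gene. WBGene00042838, WBGene00033150 and WBGene00302992 have a day 6 replicate 3 far above replicates 1 and 2, while WBGene00025511, WBGene00037284 and WBGene00041030 do not.

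The calls of the 3 comparisons overlapped in part. Of the 329 genes, 255 (77.5%) were called in at least 1 of them and 74 (22.5%) in none, against 83.6% and 16.4% of all genes tested. Of the 329, 102 (31%) were lower at day 6 and also at day 3 than at day 1, against 33.1% of all genes tested. The genes lower at day 6 than at both day 1 and day 3 numbered 43 (13.1%, against 8.67%). Those lower at day 6 than at day 1 but called in neither step numbered 105 (31.9%, against 5.46%). In 7 genes (2.13%, against 5.75%) both steps were called lower. The comparisons share libraries, so these counts are not independent.

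For day 9 against day 6, which the choice of genes used, a fit of all 12 libraries called 312 of 330 tested genes higher and 0 lower by edgeR, where 29.3% of all 15788 genes tested were called higher; nothing is read from this count. A fit of the libraries of days 6 and 9 alone called 0 of 306 by edgeR, with 253 at an unadjusted p under 0.05, where 0.179% of all genes tested were called higher. DESeq2 on all 12 libraries called 326 higher, against 24% of a larger set of 20967 genes. The count by edgeR was 53 (16.01%, against 9.1% of all genes) without replicate 1 of day 6 and 65 (19.6%, against 10.5%) without replicate 2 of day 6. It was 168 (50.9%, against 13.9%) without replicate 2 of day 9 and 161 (48.8%, against 13.7%) without replicate 3 of day 9.

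Some of the genes lie next to each other in the deposited table, whose order of rows is not explained in the sources used here. Of the 331 genes, 46 (13.9%) had another of them in a neighbouring row, where 2.65% of all other genes had a neighbour among the 331. In the group of 751 genes, 13.7% had a neighbour of the same group. That group is larger, and the share of other genes beside one of its genes was not counted, so the groups cannot be compared here. The 46 genes formed 16 runs of 2, 2 runs of 3 and 2 runs of 4 genes. These runs were looked at after their values were seen.

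The 2 longest runs differed in where replicate 3 of day 6 stood. In the first, WBGene00037111, WBGene00037112, WBGene00037113 and WBGene00037114 stood at 97.0, 130.6, 78.9 and 237.2 CPM in replicate 2 of day 9 and at 118.6, 152.4, 91.5 and 277.6 CPM in replicate 3, while replicate 1 held 0, 0.140, 0.280 and 0.700 CPM. Replicate 3 of day 6 stood at 2.58 to 3.27 times the mean of replicates 1 and 2 in these 4 genes, and it lay below replicate 3 of day 3 in each. In the second run, WBGene00027591, WBGene00027592, WBGene00027593 and WBGene00027594 stood at 639.5, 496.4, 54.1 and 186.0 CPM in replicate 2 of day 9 and at 795.7, 624.7, 66.1 and 227.8 CPM in replicate 3. In this run replicate 3 of day 6 stood at 11.97 to 17.05 times the mean of replicates 1 and 2, and it lay above all 3 libraries of day 3 in each gene. Whether reads of neighbouring or similar genes were shared in counting is not given in the sources used here, so single genes of such runs are uncertain.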

How the data were processed

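The deposited table holds raw counts per gene, 1 column per library, for 12 libraries of whole C. briggsae AF16 hermaphrodites. Per the labels' protocols, the RNA came from a Trizol extraction and the cDNA libraries from the TruSeq kit (version 2). STAR, featureCounts and MultiQC were used, per the submitters' processing notes; the sources used here name no version, genome build, annotation or strand setting. Day and replicate came from the titles.

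CPM was the count over the column total. Days 1, 3 and 6 were compared in their 9 libraries with edgeR 4.0.16 (R 4.3.3): filterByExpr by day, TMM factors, 1 mean per day, robust quasi-likelihood F tests, and p-values adjusted by Benjamini-Hochberg over all genes tested, with a threshold of 0.05. The SE is the log2 fold change over the square root of F. Fold changes use TMM scaling; CPM values do not. The test was checked on simulated counts.

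The genes, the rule and the tests were chosen with earlier results of these data known. Named genes were the first 2 by level, by ratio (libraries under 3 counts set to 3), by nearness to the limit on each side, by level in day 9 replicate 1, and by called fold change in each direction. Lists by gene name, planned for the case that names were found, were not run, since 0 identifiers matched the reference table of 22727 genes (assembly CB4). Alternatives were median-of-ratios factors, no filter, DESeq2 1.42.0, all 12 libraries, a replicate block, libraries left out, and other limits of the rule.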

Additional observations from a re-analysis of the deposited data

How the results depend on the processing

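The number of genes chosen was 285 with TMM factors and 248 with median-of-ratios factors, 439 at a 3-fold and 87 at an 8-fold limit, 398 at 2 CPM and 265 at 10 CPM, and 331 to 392 with single libraries left out. Leaving out a library takes a limit away from the rule, so these last counts could hardly fall and are no check of the choice. Calls in both directions numbered 113 for day 3 against day 1, 47 for day 6 against day 3 and 245 for day 6 against day 1, or 34.3%, 14.3% and 74.5% of the genes, against 69.8%, 19.3% and 76.3% of all genes tested. With day 9 in the fit they were 6, 0 and 24, where 47.7%, 1.96% and 56.5% of all genes were called. For the 0, edgeR gave 5 genes at an unadjusted p under 0.05 and DESeq2, without day 9, called 63. The rule sets a wide spread of the members at day 9, so nothing is read from the counts with day 9. Single libraries left out gave 71 to 196, 17 to 206 and 187 to 297 calls, where 62.4% to 73.4%, 9.12% to 30.2% and 69.9% to 77.1% of all genes were called. Without replicate 3 of days 3 and 6 together, chosen after seeing the data, there were 265, 224 and 315, against 75.3%, 35.2% and 80.5% of all genes. For day 9 against day 6 there were 312 calls, 0 in a fit of those days alone, and 53 to 330 with single libraries left out, against 44.7%, 0.473% and 15.2% to 76.1% of all genes; the cause of these differences was not tested. With the replicate number as a block there were 170, 71 and 274 calls; its lower calls were 50.5%, 21.0% and 83.0% of the genes, against 37.5%, 12.6% and 41.3% of all genes tested, so that the order of the shares for day 3 against day 1 was the opposite of that without the block. Replicate numbers were not taken as pairs in the main fits. Same-numbered libraries of these days correlated in their deviations at -0.005 to 0.155, over 0.1 in 4 of 9 pairs. The other pairs of libraries correlated at -0.163 to 0.078, and 6 of 9 libraries correlated best with one of their own number. A pairing by number can thus not be set aside, and the calls without the block may leave one out. With day 9 in the fit, the calls of WBGene00041823, WBGene00024643, WBGene00037284, WBGene00302992 and WBGene00036356 were lost as well. Nothing is read from these losses, since the rule sets the members' spread at day 9. With no low-count filter the calls of WBGene00041823 and WBGene00036356 were lost, and with the block those of WBGene00041823 and WBGene00034692. With median-of-ratios factors that of WBGene00036356 was lost, and without replicate 3 of days 3 and 6 that of WBGene00037284. The 12 fold changes named for a call, the only ones rerun, kept their sign under each alternative. Depth limits replicate 1 of day 9 most, where 127 of the 331 genes had under 3 counts.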
